A study of Homo sapiens with 8 samples.

Results

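The 5' untranslated region (5' UTR) of an mRNA is the stretch between its cap and the start codon, through which the small ribosomal subunit scans. N1-methyladenosine (m1A) is an adenosine that carries a methyl group on the edge used for base pairing, and maps of polyadenylated RNA have often placed it in 5' UTRs and near start codons. TRMT6 binds the substrate beside the catalytic subunit TRMT61A, and together they write m1A in the T-loop of tRNA and in similar stems of other RNAs. The positions described here lie in annotated 5' UTRs, more than 100 nt from the start of every transcript to which they were assigned.

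They were taken from a deposited table of 9962 single-base m1A positions. A position was kept when at least 1 of its rows named a 5' UTR and its smallest transcript position over all rows was above 100. Mitochondrial positions and the 288 positions annotated to both strands were left out. Coordinates are those of hg38, counted from 1. This gave 785 positions in 606 genes, 8.12% of the 9664 nuclear positions annotated to 1 strand. For 592 of the 785 every row named a 5' UTR, and 184 were coding sequence in another annotated transcript.

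The compared groups were neuroblastoma cells transfected with small interfering RNA against TRMT6 (siTRMT6) and control cells, with 2 m1A immunoprecipitates of polyadenylated RNA each. The labels disagree on the line: titles name SK-N-BE, while the source and cell line fields name SK-N-AS, and the control transfection is not described further. Nothing in the labels tells if the replicates came from separate cultures. A p-value here thus reflects only how far these 4 libraries spread, possibly for technical reasons. The count columns are named by condition and number, without saying m1A or input. They were taken as m1A reads because the table lists m1A positions, and input reads were not used here.

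The listed positions held 40771 reads in siTRMT6 1, 13812 in siTRMT6 2, 8655 in control 1 and 46007 in control 2, which is not the sequencing depth of these libraries. TRMT6 and SST, the genes of the series title, had 0 listed positions, so the silencing could not be checked here. Of the 13 noradrenergic neuroblastoma markers checked, 11 had a listed position, with 705 siTRMT6 and 637 control reads, while ISL1 had none. Of 9 mesenchymal markers 4 were listed, with 54 siTRMT6 and 64 control reads. COL1A1, PTPRC, EPCAM and KRT8, markers of other cells, had 0. In bulk samples, fewer cells of a type and less RNA per cell cannot be told apart.

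The sequence around the listed base could be read for members that fall inside RefSeq promoter windows of GRCh38.p14, which run from 250 bases before to 50 after a gene's start. The first set shows listed bases that rank high in reads among those readable and have no other listed base within 10 bases, given 5' to 3' on the transcript strand with the listed base in capitals. ZNF580 encodes a zinc finger protein, TIMM13 a chaperone of mitochondrial import, and FEV a transcription factor of serotonergic neurons. They lie at chr19:55641911-55641931 on the plus strand and at chr19:2427627-2427647 and chr2:218985221-218985241 on the minus strand.
ZNF580, 25 reads in siTRMT6 1: ctggggaggtAcctagagagg
TIMM13, 30 reads in siTRMT6 1: tccgtccccgTccgcgcggac
FEV, 24 reads in control 2: acgcccgggcTgccccctccc

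The second set shows neighbouring listed bases of the 2 conditions, with every listed base in capitals, because many results below turn on such neighbours. SRRM2 encodes a scaffold protein of nuclear speckles, HNRNPL and GNB2L1 (the older symbol of RACK1) encode a splicing regulator and a ribosome-bound scaffold, STC2 a secreted glycoprotein, and RHOA a GTPase of the actin cytoskeleton. The stretches are chr16:2752788-2752814 on the plus strand, and chr19:38850073-38850089, chr5:181243949-181243966, chr5:173328505-173328516 and chr3:49412084-49412106 on the minus strand. In HNRNPL and GNB2L1 the first capital is the siTRMT6 base, and in STC2 it is the control base. In SRRM2 the first capital is a control base and the other 2 are siTRMT6 bases, and in RHOA the first 2 are control bases and the last is the siTRMT6 base.
SRRM2, 40 siTRMT6 and 22 control reads: ctcgAgcagcggcggcggcAagAcctc
HNRNPL, 19 siTRMT6 and 18 control reads: cgtgTggcggccTaccc
GNB2L1, 18 siTRMT6 and 16 control reads: gggcTcgccatttTgcat
STC2, 21 siTRMT6 and 13 control reads: ggatTggTccag
RHOA, 6 siTRMT6 and 13 control reads: ctccTgagcaaTagtggaTgagc

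A base could be read for 122 members, 15.5% of the 785, so nothing is stated here on the sequence of the whole set. On the plus strand of the genome, the listed base was A at 122 of 122. On the transcript, it was therefore A at all 26 members of plus-strand transcripts and T, which is U in the RNA, at all 96 members of minus-strand transcripts. Those 96 listed bases were not adenosines of the transcript they were assigned to. Of the 121 members whose neighbours could be read, the base before the listed one on the plus strand was A in 6 and the base after it in 32. The motif GTTCNA, the core of the tRNA T-loop in which the enzyme acts, was searched on the transcript strand over the listed base and 10 bases on each side. Its reverse complement was not searched. It was present in 1 of 117 windows. It could end at the listed base in the 25 windows of plus-strand transcripts alone, since that base is not A on the others, and did so in 0 of the 25. Among windows of the same length centred on every plus-strand A of 35116 promoters and read on the gene's strand, 1.05% held it.

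Members were split more evenly between the strands than the other positions. They comprised 456 positions of plus-strand transcripts and 329 of minus-strand transcripts (58.1% plus), against 6710 and 2169 of the other nuclear positions (75.6% plus). As a share of listed positions, members made up 12.9% of the minus-strand positions in siTRMT6 1 (Wilson 95% interval 10.8 to 15.2) and 15.2% in siTRMT6 2 (12.1 to 18.9), against 12.9% in control 1 (8.88 to 18.3) and 13.2% in control 2 (11.3 to 15.4). Of the plus-strand positions they made up 6.69% in siTRMT6 1 (5.80 to 7.71) and 6.40% in siTRMT6 2 (5.01 to 8.16), against 9.30% in control 1 (7.23 to 11.9) and 5.47% in control 2 (4.72 to 6.32). The minus-strand share was the higher one in 4 of 4 libraries, and this difference was not tested. These intervals, and those below, cover counting error only.

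**Figure D1:**
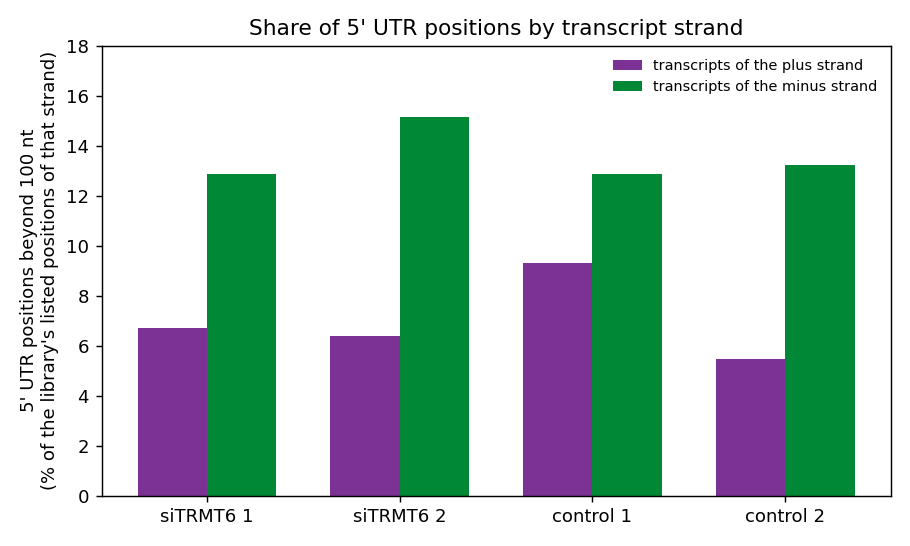
Members as a percentage of each library's listed nuclear positions, separately for transcripts of the plus strand (purple) and the minus strand (green); each bar is 1 library, with no error bar. In each of the 4 libraries the minus-strand bar, between 12.9% and 15.2%, stands above the plus-strand bar, between 5.47% and 9.30%.

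The start used in the deposited annotation was also set against the RefSeq gene start, available for 635 members (80.9%). Measured along the genome without splicing, 523 lay more than 100 nt downstream of that start, 34 lay within its first 100 nt and 78 lay upstream of it. The upstream ones were 13 of 365 members on plus-strand transcripts (3.56%) and 65 of 270 on minus-strand transcripts (24.1%). Among them were TIMM13 at 51 nt, FEV at 47 nt, STC2 at 95 and 98 nt, and RHOA at 112 to 126 nt before the RefSeq start. For these members, "beyond the cap" therefore holds for the annotation deposited with the table and not for RefSeq.

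The question of the series was where m1A differed after silencing of TRMT6. The members' share of the listed positions did not differ beyond the spread between libraries. Members were 8.25% of the nuclear positions with reads in siTRMT6 1 (7.39 to 9.21) and 9.15% in siTRMT6 2 (7.73 to 10.8), against 10.2% in control 1 (8.26 to 12.5) and 7.41% in control 2 (6.65 to 8.25). The means were 8.70% ± 0.634 in siTRMT6 and 8.79% ± 1.96 in control libraries (SD, n = 2 each), a difference of -0.0893 percentage points (two-sided exact permutation p = 1; the smallest p that this design allows is 0.333). The siTRMT6 values lay between those of the 2 controls, and the direction of this difference depended on the library set and the definition used. Of the reads, members held 7.52% and 7.80% in siTRMT6 1 and 2, against 8.06% and 6.14% in control 1 and 2. The difference in reads was 0.559 percentage points (two-sided exact permutation p = 1, n = 2 each), and without control 2 it was -0.400.

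Reads per member were low in every library. The lowest, median and highest were 4, 8 and 40 in siTRMT6 1 over 289 members, and 3, 7 and 29 in siTRMT6 2 over 125 members. In the controls they were 4, 7 and 17 in control 1 over 81 members, and 5, 7 and 56 in control 2 over 307 members. Only 39 of the 785 members held 20 or more reads in all, and 229 held 10 or more. The medians of the libraries' other nuclear positions were 9, 8, 8 and 9 reads in siTRMT6 1, siTRMT6 2, control 1 and control 2.

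**Figure D2:**
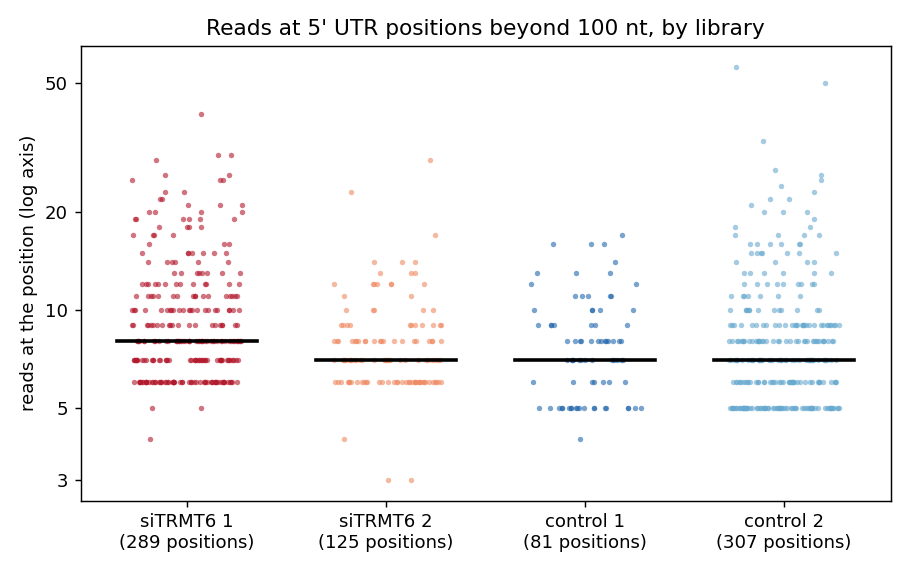
Reads at each member by library, on a log axis; each point is 1 position with reads in that library, spread sideways at random, and the black bar is the median. The medians are 8, 7, 7 and 7 reads from left to right, and the highest points are the 56 reads of HAND2 and the 50 of PHOX2A in control 2.

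Among members with siTRMT6 reads, EMILIN1, an extracellular matrix glycoprotein, came first. Its position 27079111 on chromosome 2 held 40 reads in siTRMT6 1 and 0 in the other 3 libraries, and position 27079017 held 23 reads in siTRMT6 2 alone. TIMM13 held 30 reads at 2427637 on chromosome 19, and EEF1A1, the elongation factor that delivers tRNA to the ribosome, held 30 at 73520132 on chromosome 6. HSPA8, a constitutive heat shock chaperone, held 29 at 123059960 on chromosome 11, and SRRM2 26 at 2752807 on chromosome 16. Each of these 4 had its reads in siTRMT6 1 and 0 in the other libraries. GNB2L1 had 26 reads at 181238420 on chromosome 5, SOX12, a SoxC transcription factor, had 25 at 325703 on chromosome 20, and ZNF580 had 25 at each of 2 bases, 55641921 and 55642293 on chromosome 19. All of these too were in siTRMT6 1 alone. RefSeq names 50 pseudogenes of EEF1A1 and 20 of HSPA8, so reads there are uncertain.

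Among members with control reads, 2 noradrenergic transcription factors led. HAND2 held 0 reads in siTRMT6 1, 29 in siTRMT6 2, 0 in control 1 and 56 in control 2, at 173529365 on chromosome 4, 865 nt from the transcript start. PHOX2A held 50 reads in control 2 and 0 in the other libraries at 72244073 on chromosome 11, 104 nt from the start and so just inside the limit of 100. ACTG1, cytoplasmic gamma-actin, followed with 33 reads in control 2 at 81512483 on chromosome 17, a gene for which RefSeq names 21 pseudogenes. PATZ1, a zinc finger transcription factor, held 13 reads in control 1 and 16 in control 2 at 31345938 on chromosome 22, and 0 in both siTRMT6 libraries. GNB2L1 held 27 reads at 181238415, GNB2, a G protein beta subunit, 26 at 100676241 on chromosome 7, and C14orf132 25 at 96088773 on chromosome 14. FEV had 24 at 218985231, PFN1, the actin-binding protein profilin (10 named pseudogenes), 23 at 4946973 on chromosome 17, and both KLC2, a kinesin light chain, and SRRM2 had 22. These 7 had all their reads in control 2.

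The authors' deposited table, which pools the replicates, gave all but 1 of the members a call. At an adjusted p below 0.05 it had 402 members higher in siTRMT6 (51.2%) and 382 lower (48.7%), against 49.6% higher and 50.4% lower over all 9962 positions. FBRS was the 1 member without a call in the authors' deposited table (adjusted p = 0.0558). Of the members, 402 had reads in siTRMT6 libraries alone, 380 in control libraries alone and 3 in both. Reads in both conditions were rare elsewhere too, at 11 of the 8879 other nuclear positions. Reads in 1 library stood behind 98.0% of the members and 98.6% of the other nuclear positions.

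Replicates rarely listed the same base. Both siTRMT6 libraries had reads at 9 members and both controls at 5. In siTRMT6 1 and 2, MLF2 had 13 and 8 reads at 6753209 on chromosome 12, and STC2 had 12 and 9 at 173328509 on chromosome 5. PRMT5, an arginine methyltransferase, had 11 and 6 at 22929456 on chromosome 14. ALKBH2, a demethylase of alkylated DNA, had 10 and 6 at 109092920 on chromosome 12, and RANGAP1, the GTPase activator of Ran, also had 10 and 6 at 41281253 on chromosome 22. MAPK3, the kinase ERK1, had 8 and 6. The histone chaperone gene ASF1B had 5 and 4 reads, and the endosomal gene DNAJC13 had 5 and 3. Control 1 and 2 had 0 reads at all 9 bases. A listed control position lay 3 nt from the base in STC2, 9 nt in MAPK3, 16 nt in RANGAP1 and 22 nt in PRMT5. MLF2, ALKBH2, ASF1B and DNAJC13 had no listed neighbour in the gene within 200 nt.

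The control pair shared PATZ1, CDK13, CRCP, SNRPC and REPS1. CDK13, a kinase of elongating RNA polymerase II, had 8 and 9 reads in control 1 and 2 at 39951401 on chromosome 7. CRCP had 5 and 6, and SNRPC, a U1 snRNP protein with 20 named pseudogenes in RefSeq, had 4 and 6, with 0 in both siTRMT6 libraries at these 3. A listed siTRMT6 position lay 15 nt from the CDK13 base, while CRCP and SNRPC had no listed neighbour in the gene within 200 nt. REPS1, an endocytic adaptor, was the 1 member with reads in 3 libraries: 0 in siTRMT6 1 and 6 in siTRMT6 2, against 8 in control 1 and 9 in control 2, at 138987897 on chromosome 6. FBRS had 0 and 11 reads in siTRMT6 1 and 2, against 0 and 20 in control 1 and 2, at 30664876 on chromosome 16. HAND2, REPS1 and FBRS were thus the 3 members with reads in both conditions, and in HAND2 and FBRS the libraries of 1 condition did not resemble each other.

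Tested over the whole table with edgeR's quasi-likelihood test, 34 positions had enough counts to enter the fit. At a Benjamini-Hochberg adjusted p below 0.05, 22 were called (64.7% of those tested), 13 higher (38.2%) and 9 lower (26.5%) in siTRMT6. In each of the 22, both libraries of 1 condition held reads and both of the other held 0. They thus passed the filter through 1 condition alone. None of the tested positions with reads in both conditions was called. The 64.7% follows this pattern of counts and is not a rate of m1A change over the table. DESeq2 called 0 of the 34, as did edgeR with the replicate block. Leaving out any 1 of the 4 libraries changed the positions that passed the filter to between 341 and 1731, of which edgeR called 0. The 3 members tested were those with reads in both conditions, and 0 of them were called by edgeR (0 at an unadjusted p below 0.05), as by DESeq2. The log2 fold changes of siTRMT6 over control were -0.38 for HAND2 (SE 3.28, adjusted p = 0.922), -0.96 for REPS1 (SE 1.89, adjusted p = 0.845) and -0.29 for FBRS (SE 2.76, adjusted p = 0.922), from edgeR. With equal library sizes PATZ1, with reads in both controls and 0 in both siTRMT6 libraries, passed the filter and was called lower (edgeR adjusted p = 0.0136). The other members did not pass the filter.

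Because bases were rarely shared, listed positions of 1 strand within 200 nt of each other were joined. Members fell in 664 joined regions, of which 117 (17.6%) had reads in both conditions, 283 in siTRMT6 alone and 264 in control alone. Of the 7127 regions without a member, 16.9% had both. The 117 regions had a median log2 of siTRMT6 over control, scaled by each condition's listed reads, of 0.0021 (quartiles -0.41 and 0.27, range -1.50 to 1.002), and 1202 other regions with both conditions had a median of -0.15. Log2 was above 0 in 61 of the 117 regions and below 0 in 56. A region enters this set only when both conditions have a listed position in it.

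The 10 member regions with most reads all held reads of both conditions. PHOX2A had 49 reads in siTRMT6 1 at a base 25 nt upstream of its member, which is nearer the start than 100 nt, against the 50 reads in control 2, a log2 of -0.027. The EMILIN1 region had 40 and 23 reads in siTRMT6 1 and 2, against 34 in control 1 at a base 97 nt from the start and 0 in control 2, a log2 of 0.89. HAND2 differed from the other 9 in that its region is a single base, at which both conditions had reads (0 and 29 in siTRMT6 1 and 2, against 0 and 56 in control 1 and 2). GNB2 had 24 and 13 reads in siTRMT6 1 and 2, against 0 and 26 in control 1 and 2. SRRM2 had 26 and 14, against 0 and 22, over the 18 nt printed above. KLC2 had 22 and 0 reads in siTRMT6 1 and 2, against 16 and 22 in control 1 and 2 (log2 -0.79). HNRNPL had 19 and 10 reads in the siTRMT6 libraries, against 0 and 18 in the controls. ACTG1 had 0 and 20 reads in siTRMT6 1 and 2, against 0 and 33 in control 1 and 2. HNRNPA0, an RNA-binding protein, had 19 and 10 reads in siTRMT6 1 and 2, against 0 and 19 in control 1 and 2, with 1 of its 3 bases a member. GNB2L1 had 26 and 0 reads in siTRMT6 1 and 2, against 0 and 27 in control 1 and 2, at bases 5 nt apart. In these regions other than HAND2 the siTRMT6 and control reads lay at different bases. Next came TIMM13, with 30 and 14 reads in siTRMT6 1 and 2 and 0 in both controls. MEPCE, the enzyme that caps 7SK RNA, had 21 reads in siTRMT6 1 and 21 in control 2 at bases 87 nt apart.

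Pairs with fewer reads were as close. STC2 had 12 and 9 siTRMT6 reads at 995 nt from the transcript start and 13 in control 2 at 992 nt. TWIST1, a mesenchymal basic helix-loop-helix factor, had 21 reads in siTRMT6 1 at 182 nt and 16 in control 1 at 208 nt. CPOX and SLC35B1, a haem synthesis enzyme and a nucleotide sugar transporter, had 8 siTRMT6 reads beside 9 and 8 control reads at distances of 2 and 3 nt. Of the 785 members, 210 (26.8%) had a listed position of the other condition within 200 nt in the same gene, at a median of 20.5 nt, and 68 had it within 10 nt. None of the members had a second listed position of the same library within 200 nt in the same gene. No such counts are given for the other listed positions, so they do not show a trait particular to members.

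**Figure D3:**
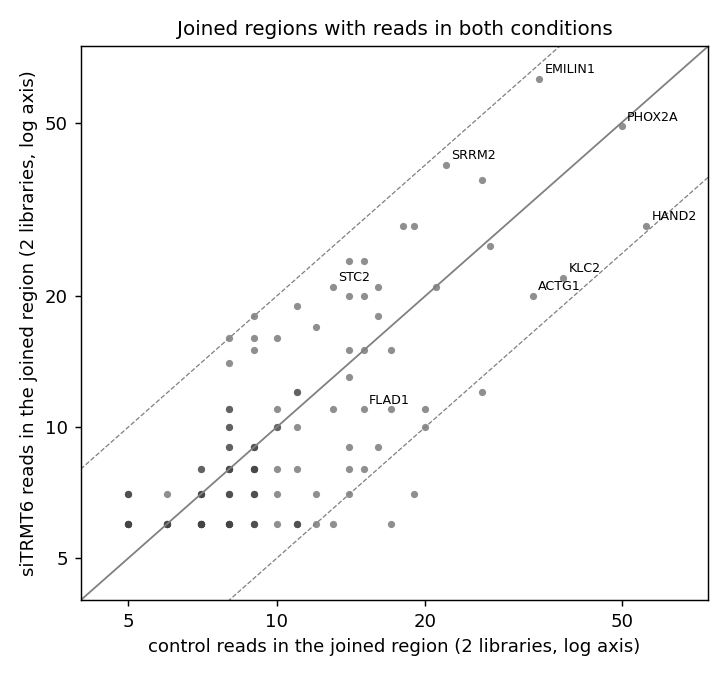
siTRMT6 reads against control reads in the 117 joined regions that hold a member and reads of both conditions (both libraries of a condition summed, log axes, unscaled); non-member positions in the region are included. The solid line marks equal reads and the dashed lines a 2-fold difference; most points lie between the dashed lines, with PHOX2A on the solid line and HAND2 near the lower dashed one.

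The same edgeR test on joined regions called 0 of the 465 regions tested (0%), with 121 at an unadjusted p below 0.05, and DESeq2 also called 0, with 8 unadjusted. Of the 37 regions with a member, 12 were below 0.05 unadjusted, 10 higher and 2 lower in siTRMT6, with adjusted p from 0.0545 to 0.0592 in edgeR. Over all 121 regions below 0.05 unadjusted, 96 were higher and 25 lower. In each of the 12, both libraries of a condition held reads and both of the other held 0. They thus passed the filter through 1 condition alone. Their unadjusted p-values follow this pattern of counts and are not separate support for a change. Some of these regions also hold a position that is not a member, and the reads given are those of the whole region. The higher ones were led by TIMM13, with 30 and 14 reads in siTRMT6 1 and 2 and 0 in the controls, and FAM222A with 20 and 14. ARHGAP11A, a GTPase activator, had 20 and 13, PPP1R14B, a phosphatase inhibitor, had 19 and 13, HAND1, a paralogue of HAND2, had 21 and 11, and MCL1, an anti-apoptotic BCL2 relative, had 18 and 10, with 0 in the controls. The 2 lower ones were TPT1, the translationally controlled tumour protein, with 17 and 19 reads in control 1 and 2 at bases 195 and 204 nt from the start, and TCF20, a transcriptional coregulator, with 11 and 18; both had 0 in the siTRMT6 libraries. The remaining 25 regions had an adjusted p of 0.999. Beyond 2-fold among regions with both conditions were 2 higher, GRIA4 and RANGAP1, and 4 lower, REPS1, NR1H2, PHLDB1 and RHOA. RANGAP1, REPS1 and NR1H2 were tested and not called (edgeR adjusted p = 0.999), and the other 3 did not pass the filter.

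Of the 606 genes, 468 had 1 member, 107 had 2 and 31 had 3 or more. Of the 31, 30 had members in both conditions and 1, RABGEF1, an activator of RAB5, had control reads alone (5 in control 1 and 11 in control 2). ANKHD1 had the most members, 6, with 8 and 6 reads in siTRMT6 1 at 337 and 479 nt, 6 in siTRMT6 2 at 4499 nt, 7 and 8 in control 1 at 343 and 4502 nt, and 6 in control 2 at 452 nt. These 6 formed 3 pairs, each with 1 position of either condition, 6, 27 and 3 nt apart, and all were coding sequence in another transcript. MEPCE had 5, with 40 reads in siTRMT6 1, 18 in siTRMT6 2, 0 in control 1 and 21 in control 2. FLAD1, which makes FAD, had 11 and 0 reads in siTRMT6 1 and 2, against 0 and 47 in control 1 and 2. GNB2L1 had 44 and 0, against 16 and 27.

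MSH6, a mismatch repair protein, had 11 and 7 reads in siTRMT6 1 and 2, against 0 and 18 in control 1 and 2, over 4 positions that all were coding in another transcript. PLEKHO1 had 23 and 7 reads in siTRMT6, against 0 and 10 in control libraries, and RAI1, a chromatin-associated protein, had 16 and 6, against 0 and 8. CDR1 had 9 and 6 reads in siTRMT6 1 and 2, against 0 and 9 in control 1 and 2. SCG3, a granin of secretory granules, had 6 and 0, against 0 and 13. In each of these genes both conditions had reads, at different bases.

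**Figure D4:**
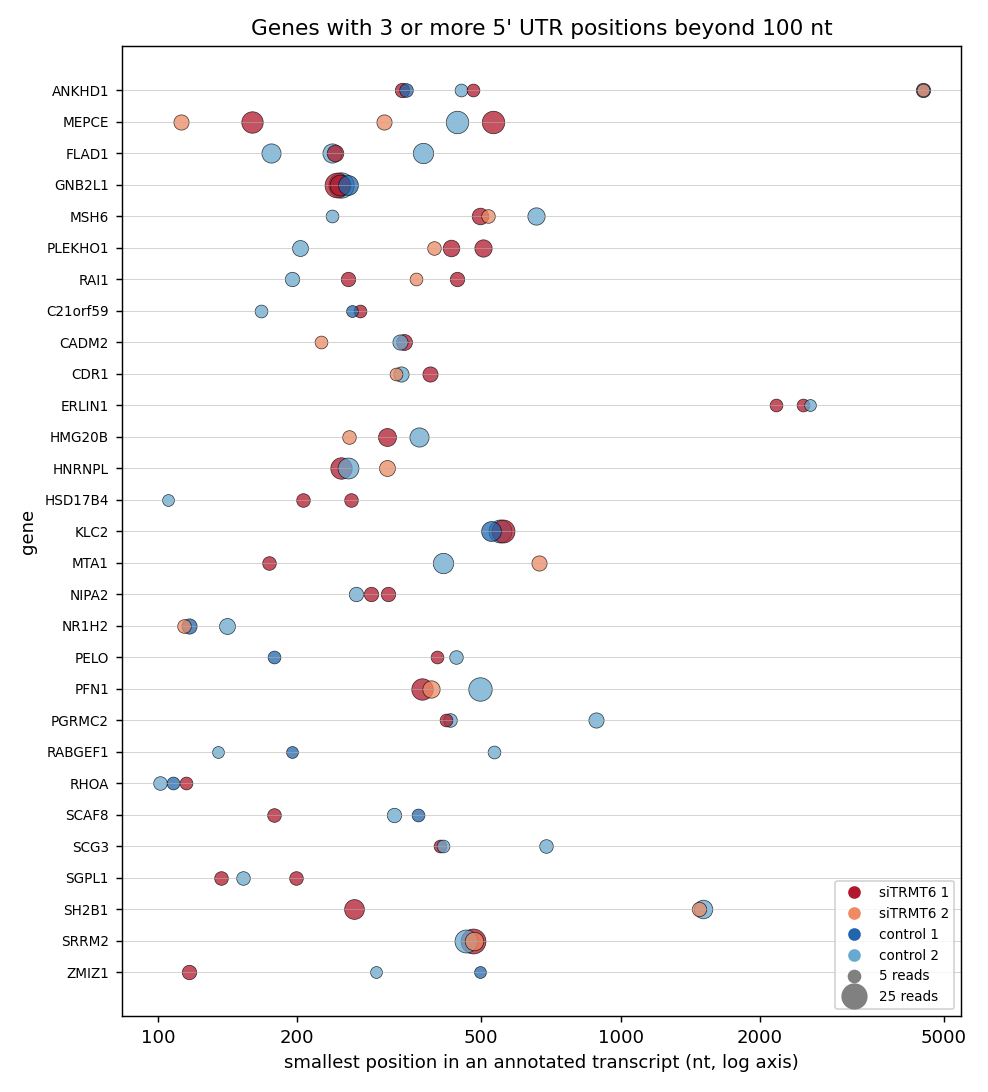
Members of 29 of the 31 genes with 3 or more of them, by smallest position in an annotated transcript (log axis); colour is the library and area grows with the reads. Positions of 1 gene can belong to different transcripts, as in GNB2L1; points of red and blue shades, siTRMT6 and control, lie side by side in most rows, and RABGEF1 is the row with control points alone.

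Members of 5 gene lists were followed; the lists were written with earlier results on these data known. Of 24 noradrenergic core genes 17 had a listed position and 5 had a member, 3 higher and 2 lower in siTRMT6 in the authors' deposited table, with a median of 12 reads against 8 over all members. Beside HAND2 and PHOX2A these were GATA3, which held 12 reads in siTRMT6 2, HAND1, which held 11 in siTRMT6 2, and TBX3, which held 6 in siTRMT6 2. MYCN had 5 listed positions and 0 members. Of 41 growth genes with long 5' UTRs, 21 had a listed position and 5 had 7 members, 6 higher and 1 lower, with a median of 8 reads. Over all members, 51.2% were higher and 48.7% lower in the authors' deposited table, and no list was tested against these shares. AKT1, a kinase of the insulin pathway, held 12 reads in siTRMT6 1 at 1218 nt, and JUN, an AP-1 subunit, held 8 in siTRMT6 2 at 1148 nt. TGFB1, a cytokine, held 8 in siTRMT6 2, and the receptor kinase RET held 6 in siTRMT6 1.

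Of 26 genes known for upstream open reading frames or the stress response, 15 had a listed position and 3 had a member, 1 higher and 2 lower, with a median of 5 reads. PPP1R15B, a phosphatase subunit of the integrated stress response, held 7 reads in siTRMT6 2. HIF1A, the oxygen-regulated transcription factor, held 5 in control 1 at a base that is coding in another transcript, and AMD1, a polyamine synthesis enzyme, held 5 in control 2. ATF4, the standard example of this control, had no member. Of 40 translation initiation factors, 28 had a listed position and 2 a member: EIF2S1, the alpha subunit of eIF2, held 8 reads in siTRMT6 1, and EIF4G1, the scaffold of the cap-binding complex, held 13 in control 2. Of 17 m1A enzymes and readers 7 had a listed position and 1 a member, YTHDF3, with 7 reads in siTRMT6 1.

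The distance from the transcript start, taken as the smallest over annotated transcripts, had a median of 249 nt (quartiles 162 and 410). It fell between 101 and 200 nt for 298 members, between 201 and 500 for 350, between 501 and 1000 for 96 and beyond 1000 for 41. The medians were 258 nt in siTRMT6 1 and 233 in siTRMT6 2, against 234 in control 1 and 248 in control 2, so the ranges of the 2 conditions overlapped. By strand the medians were 254 nt for plus-strand and 244 nt for minus-strand transcripts. The farthest were the ANKHD1 positions at 4502 and 4499 nt and EGLN1, an oxygen-sensing prolyl hydroxylase, at 3020 nt with 8 reads in siTRMT6 1. EGLN1 lay 262 nt from its RefSeq start, so its rank rests on the transcript used.

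**Figure D5:**
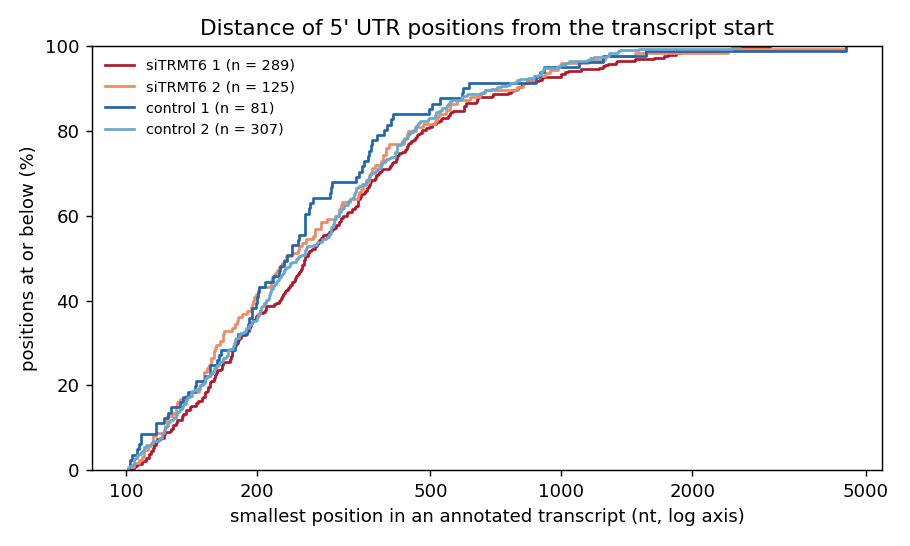
Cumulative percentage of members at or below each distance from the transcript start (smallest over annotated transcripts, nt, log axis), with 1 line per library. The 4 lines run close together, with medians of 258 and 233 nt in the siTRMT6 libraries and 234 and 248 nt in the controls.

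At the limit itself, members at 101 nt were RHOA with 7 control reads, KCNMA1, a potassium channel, with 5 control reads, and FBXO25, an F-box protein, with 6 siTRMT6 reads. Just outside it, at 100 nt, were PPP6R1, a phosphatase subunit, with 10 siTRMT6 reads and FGL1 with 7 control reads. The 493 5' UTR positions at 100 nt or nearer had a median of 8 reads, as the members had.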

How the data were processed

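Per the submitters' processing notes, FastQC 0.11.3, STAR and the build hg38 were used; how sites were called, counted and tested is not given in the sources used here. The deposited table gives, per the file headers, raw and adjusted p-values, log2 fold changes and the read counts of 4 libraries, by position and transcript. What a deposited count of 0 means is not stated, and positions outside the authors' filter are not analysed here. Sites, listed from 0, are given from 1.

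Counts were tested over all positions, and over positions of 1 strand joined within 200 nt, with edgeR 4.0.16 in R 4.3.3 (TMM, filterByExpr with a minimum count of 10, quasi-likelihood test, Benjamini-Hochberg adjustment at 0.05); DESeq2 1.42.0 was an alternative. In the main fits, library sizes were summed over the 34 positions or 465 regions that passed the filter. TMM rests on few shared positions. The directions called over positions changed with the library sizes used, as given below. The SE is the fold change over the root of the test's F. Shares were compared with exact permutation tests over the 4 libraries. Log2 values of joined regions are scaled by each condition's listed reads. Sequences and gene starts are RefSeq's (GRCh38.p14); 604 of 606 symbols matched. Only the edgeR fit over joined regions was tried on simulated counts, at a far higher depth than these libraries hold. That trial does not show how the fits behave at the low counts here. The fit over positions and DESeq2 were not tried on simulated data.

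A few genes that these rules name are not reported here. Members and lists were chosen with earlier results of these data known. Named were members in 2 or more libraries, the 10 with most reads per condition, tested members, the 10 neighbouring pairs with most reads, genes with 3 or more members, list members, the 3 farthest and those at the limit; CPOX, SLC35B1, TWIST1, MYCN, ATF4 and the regions singled out after the edgeR test were named after their values were seen.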

Additional observations from a re-analysis of the deposited data

Results flagged for a closer look

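The 25 positions annotated to both strands that otherwise meet the rule were not counted as members. They were part of the table given to edgeR over positions, from which 34 positions passed the filter and entered the fit. They held 163 reads in the siTRMT6 libraries and 123 reads in the control libraries.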

How the results depend on the processing

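The count of edgeR calls over all listed positions was 22 of 34, and 29 of 37 with equal library sizes (10 higher, 19 lower), 14 with listed reads as library sizes (13 higher, 1 lower), and 0 with DESeq2 (14 at an unadjusted p below 0.05) or without the filter on low counts (0 unadjusted). With the replicate block it was 0 (0 unadjusted), with the numbers crossed, an alternative chosen after seeing the data, it was 0 (0 unadjusted), and leaving out each library in turn gave 0 to 0 (0 to 5 unadjusted). The members called were 0, other than PATZ1 with equal library sizes. Over joined regions the count was 0 under 11 other settings and with the crossed block. Same-numbered libraries deviated together with r = 0.33 over 34 positions and -0.26 over 465 regions; they share a number and are not known to be paired. The siTRMT6 minus control difference in the members' share of positions, -0.089 percentage points, became 0.24 with a limit of 50 nt, 0.059 with 5' UTR in every row, 0.50 with counts of at least 10 and 0.95 on minus-strand transcripts alone, and ran from -1.47 to 1.29 when each library was left out; the replicate block left it at -0.089 (exact permutation p = 1). The difference in the share of reads, 0.56, ran from -0.40 to 1.52 when each library was left out and kept its sign in the other 8 alternatives. The cause of these changes was not tested. As to depth, 3 of the 785 members entered the fit over positions, and TIMM13, with 30 and 14 siTRMT6 reads against 0 and 0 control reads, was not called over joined regions (edgeR adjusted p = 0.0592).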

Other observations

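Over the whole table, 468 nuclear positions of 1 strand fall inside RefSeq promoter windows, and the listed base was A on the plus strand of the genome at 468 of 468: A on the transcript at all 127 positions of plus-strand transcripts and U at all 341 of minus-strand transcripts. Plus-strand transcripts held 7166 positions and minus-strand transcripts 2498. A 5' UTR was named for 8.14% of the plus-strand positions and for 27.8% of the minus-strand positions, and at 100 nt or nearer to the start there were 127 plus-strand and 366 minus-strand positions.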
